A study of Mus musculus with 7 samples.

Results

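The 10 genes studied belong to the Notch pathway's output and tuning machinery, and were followed across 7 arrays. They are the transcription factor genes Hes1, Hes5, Hes6, Hey1, Hey2 and Heyl, the Fringe glycosyltransferase genes Lfng, Mfng and Rfng, and Nrarp. Members were taken as every non-control probe whose deposited gene name equals 1 of these 10 symbols, which gave 12 probes of the 55681 probes on the array. Mfng and Rfng had 2 probes each and the other 8 genes 1 each. The samples came from C57/Bl6 mice at embryonic day 11.5, with no allele or treatment named. For 3 arrays the apical ectodermal ridge (AER), an epithelial thickening on the distal rim of the limb bud, was microdissected from the forelimb, and for 4 control arrays surface ectoderm of the posterior limb was taken. A replicate pooled 2 to 3 mice, so errors are spreads between pools. RNA was measured on 1-colour (Cy3) Agilent arrays from 75 ng of total RNA.

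In Notch signalling, a Delta or Jagged ligand on one cell binds a Notch receptor on its neighbour, and the receptor's freed intracellular domain enters the nucleus and joins the DNA-binding protein RBPJ and a Mastermind co-activator. Hes and Hey genes are the best known targets of that complex and encode basic helix-loop-helix repressors that act with Groucho/TLE co-repressors. Hes6 differs from the others: its protein counteracts Hes1, and the gene is expressed in differentiating neural and muscle precursors. Nrarp is a Notch target whose small ankyrin-repeat protein dampens signalling by the intracellular domain. Fringe enzymes add sugars to the receptor and thereby change its response to Delta and Jagged ligands. In the limb, the ridge signals to the mesenchyme beneath it, and Jagged2 acting through Notch1 is known to limit the ridge's extent.

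The promoters of 5 of these genes are printed because they show which of them carry, next to their start, the letters that RBPJ binds. Of the 10 genes, 6 matched an entry in RefSeq's promoter table (build GRCm38.p6), by symbol, and Hes6 had 2 annotated start sites there. Hes1, Hey1, Heyl and Mfng had no entry. Each line gives the 250 bases that end just before the annotated start, 5′ to 3′ in the gene's direction. The windows are chr2:25180508-25180757 on the plus strand for Nrarp, chr1:91413223-91413472 on the minus strand for start site 2 of Hes6, chr4:154960673-154960922 on the plus strand for Hes5, chr10:30842784-30843033 on the minus strand for Hey2 and chr5:140607091-140607340 on the plus strand for Lfng. Capitals mark every match, on either strand, to 3 motifs. The first is the core of the site that RBPJ binds, GTGGGAA, which reads TTCCCAC on the opposite strand of the same window. The second is a palindromic E-box, a class of site bound by helix-loop-helix proteins, with the letters CACGTG. The third is the TATA element found near some start sites, here searched as TATAAA.
Nrarp: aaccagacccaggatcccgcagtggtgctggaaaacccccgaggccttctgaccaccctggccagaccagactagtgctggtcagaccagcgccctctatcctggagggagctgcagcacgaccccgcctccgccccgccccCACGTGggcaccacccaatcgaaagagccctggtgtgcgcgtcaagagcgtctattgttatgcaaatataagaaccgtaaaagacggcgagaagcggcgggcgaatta
Hes6, start site 2: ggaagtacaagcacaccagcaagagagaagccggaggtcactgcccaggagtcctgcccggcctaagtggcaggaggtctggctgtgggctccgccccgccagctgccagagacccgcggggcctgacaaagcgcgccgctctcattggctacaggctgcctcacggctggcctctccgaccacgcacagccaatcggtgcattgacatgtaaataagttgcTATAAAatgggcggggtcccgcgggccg
Hes5: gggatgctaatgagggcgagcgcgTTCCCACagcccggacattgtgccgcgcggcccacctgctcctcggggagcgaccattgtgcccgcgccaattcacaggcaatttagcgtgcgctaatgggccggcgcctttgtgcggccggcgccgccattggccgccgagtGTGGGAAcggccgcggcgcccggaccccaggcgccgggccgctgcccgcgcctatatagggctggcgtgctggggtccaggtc
Hey2: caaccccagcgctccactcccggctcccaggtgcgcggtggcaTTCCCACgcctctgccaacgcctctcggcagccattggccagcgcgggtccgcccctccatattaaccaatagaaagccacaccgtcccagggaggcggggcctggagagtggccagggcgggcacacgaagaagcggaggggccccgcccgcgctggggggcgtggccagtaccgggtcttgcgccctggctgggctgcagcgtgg
Lfng: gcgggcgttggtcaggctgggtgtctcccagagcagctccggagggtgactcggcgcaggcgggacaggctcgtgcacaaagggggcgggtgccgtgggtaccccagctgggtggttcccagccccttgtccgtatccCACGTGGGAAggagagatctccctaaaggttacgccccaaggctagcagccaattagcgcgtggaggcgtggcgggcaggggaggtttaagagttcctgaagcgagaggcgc

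The RBPJ core was present in 3 of the 6 genes with an entry. Hes5 had 2 copies, beginning 226 bases before the start (as TTCCCAC) and 83 bases before it (as GTGGGAA). Hey2 had 1 copy beginning 207 bases before the start, as TTCCCAC. Lfng had 1 beginning 109 bases before the start, and it overlaps an E-box that begins at 112 bases. Nrarp had an E-box 108 bases before the start and no core, start site 2 of Hes6 had a TATA element at 28 bases, and Hes6's start site 1 and Rfng had none of the 3 motifs. Among 32851 promoters of the same length, 5.42% held the core, 6.02% the E-box and 12.4% the TATA element. These matches describe letters in a short window and are not measured binding sites.

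The spots of 2 AER arrays were noisier than those of the rest. Repeated spots of 1 probe had a median SD of 0.172 and 0.170 (log2) on AER replicates 1 and 2, against 0.0572 to 0.0609 on the other 5 arrays. All 7 arrays were on 1 slide with 1 scan time, with AER replicate 1 and ectoderm replicates 1 to 3 in slide row 1 and the other 3 arrays in row 2. Slide column 1 held AER replicates 1 and 2 alone, and the other 5 arrays lay in columns 2 to 4. The part of slide column in the spot noise was not tested. The arrays had 47.6% to 54.2% of probes well above background, and the 75th percentile of the processed signal, to which each array was scaled, ranged from 257 to 563. Of 16 known AER genes tested 15 were higher in the AER, and of 20 pan-epithelial genes 17 were higher. Among genes of other tissues, 9 of 9 muscle progenitor genes and 9 of 12 limb mesenchyme genes tested were lower in the AER. The other marker lists differed less: 0 higher and 1 lower of 12 endothelial genes, 0 and 3 of 6 mural cell genes, 2 and 0 of 8 neural and neural crest genes, and no call among 7 erythroid and 7 macrophage genes (2 lower and 1 higher at an unadjusted p under 0.05 by limma). Fewer cells of a type and less RNA per cell cannot be told apart in such bulk samples.

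Hey1 and Nrarp were higher in the AER and Hes6 was lower, and the other 6 genes that could be tested did not pass. This makes 3 of 9 tested genes called (limma, Benjamini-Hochberg adjusted p under 0.05), against 15.7% of all 20826 genes tested. By direction, 2 were higher, against 7.03% of all genes, and 1 was lower, against 8.65%. The same 3 genes were those whose AER and ectoderm arrays did not overlap, which 30.3% of all genes with a value on every array also showed. The median difference over the 9 genes was -0.05 (log2, AER minus ectoderm), beside -0.08 over all genes. With 9 genes these shares describe the set and test nothing about it.

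**Figure D1:**
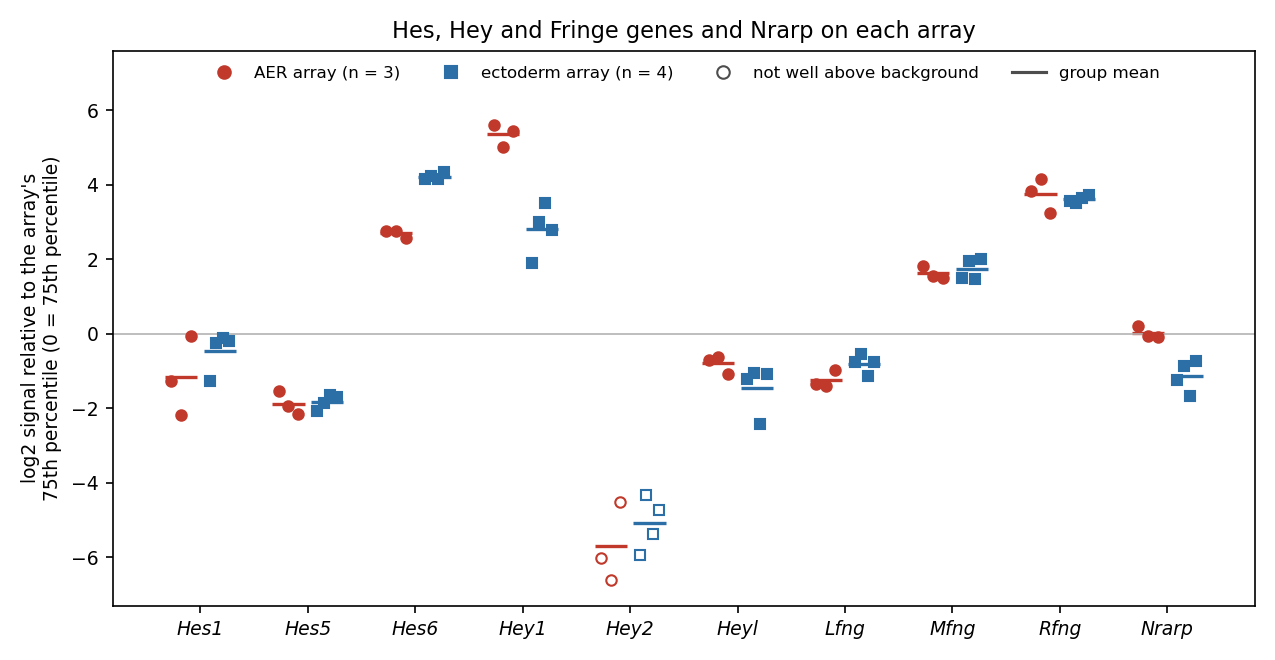
Scaled log2 signal (y axis; 0 is the array's 75th percentile) of each of the 10 genes (x axis) on the 3 AER arrays (red circles) and 4 ectoderm arrays (blue squares), with group means as bars and open symbols where the probe was not well above background. Groups are separated for Hey1, Nrarp and Hes6, and all 7 symbols of Hey2 are open. Heights of different genes are not comparable, because each probe has its own response.

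Hey1, a Hey-family repressor gene, was the member with the largest difference. Its processed signal, before scaling, was 16507, 18184 and 17279 on AER replicates 1 to 3, and 1527, 3577, 2954 and 2382 on ectoderm replicates 1 to 4. Every AER array lay above every ectoderm array, and the ectoderm arrays spread more widely than the AER arrays. On the scaled log2 scale the mean was 5.36 ± 0.31 (SD, n = 3) in the AER and 2.81 ± 0.68 (SD, n = 4) in the ectoderm. The difference of 2.55 (95% CI 1.75 to 3.35) is a 5.86-fold higher signal (3.37 to 10.2), with an adjusted p of 0.00156 by limma. With each array centred on the mean of the 20 pan-epithelial genes, of which 17 were higher in the AER, this difference was 0.84 (1.79-fold). Its probe lies at chr3:8663432-8663491 (mm9).

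The Hey1 difference was of like size in both slide rows. It was 2.79 within row 1 (1 AER array) and 2.45 within row 2 (1 ectoderm array). With the row as a block it was 2.63 (limma adjusted p = 0.00466). Set against the ectoderm with AER replicate 3 alone, it was 2.65. In each fit with a lone array, that array is assumed to vary like the other group. For Hey1 the SD was 0.31 in the AER and 0.68 in the ectoderm, so only sizes are given for these fits. Ectoderm replicate 3 had the highest Hey1 value of its group, 3.52. It also had the highest mean over the 16 known AER genes, -0.01 against -1.33 to -0.94 on the other ectoderm arrays, with the ridge ligand gene Fgf8 at 2.20 against -2.33 to -1.40. Without that array the Hey1 difference was 2.79. The part of AER RNA in that ectoderm pool was not tested. Hey genes are also expressed in blood vessels, and the mean over 12 endothelial genes overlapped between groups, at 0.34 to 0.49 in the AER and 0.18 to 0.63 in the ectoderm. The part of vessel RNA in the Hey1 difference was not tested.

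Heyl, another Hey-family repressor gene, did not pass. Its scaled log2 values were -0.69, -0.61 and -1.07 in the AER and -1.23, -1.06, -2.42 and -1.08 in the ectoderm. The groups overlap by AER replicate 3, and ectoderm replicate 3 lies far below the other 3 ectoderm arrays. The difference was 0.66 (95% CI -0.11 to 1.42; limma adjusted p = 0.223), and it was 0.33 without ectoderm replicate 3 and 0.10 with another background correction (normexp). Hey1's difference exceeded Heyl's by 1.90, with an exact permutation p of 0.0857 over the 7 arrays (two-sided) and 0.3 adjusted over the 7 pairs compared. Such a test over 35 regroupings cannot go below 0.0286, and the pairs were chosen after values were seen.

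Hey2, the remaining Hey-family gene, was near the detection limit. Its processed signal was 5.30, 5.81 and 17.2 on the AER arrays and 6.71, 22.2, 6.21 and 13.0 on the ectoderm arrays. The probe (chr10:30552729-30552788, mm9) was not well above background on any of the 7 arrays, so no fold is given and the gene was not tested.

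Nrarp, which feeds back on the Notch intracellular domain, was also higher in the AER. Its processed signal was 391, 544 and 371 on the AER arrays and 173, 246, 81.3 and 207 on the ectoderm arrays. No array of one group reached the other group's range, and ectoderm replicate 3 was the lowest. The scaled log2 mean was 0.02 ± 0.15 (SD, n = 3) in the AER and -1.12 ± 0.42 (SD, n = 4) in the ectoderm. The difference was 1.15 (95% CI 0.61 to 1.68), or 2.21-fold higher (1.53 to 3.20), with an adjusted p of 0.0116 by limma. Its probe lies at chr2:25038038-25038097 (mm9).

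Nrarp had the largest adjusted p of the 3 called genes and passed in neither slide row on its own. The difference was 1.45 within slide row 1 (limma adjusted p = 0.111) and 0.67 within row 2 (0.663), against 1.08 with the row as a block (0.0390). With AER replicate 3 alone it was 1.04 (limma adjusted p = 0.160). It was the 1 called member whose sign depended on scaling: with each array centred on the mean of the pan-epithelial genes, which were themselves higher in the AER by a median of 1.66, it was -0.56 (adjusted p = 0.0542). Under that centring Hey1 was 0.84 (limma adjusted p = 0.0305), and the median over all genes moved from -0.08 to -1.79.

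Hes6, the Hes relative that opposes Hes1, was lower in the AER. Its processed signal was 2290, 3850 and 2340 on the AER arrays and 7237, 8374, 4552 and 7042 on the ectoderm arrays. The groups were widely separated after scaling, with AER values of 2.75, 2.77 and 2.57 and ectoderm values of 4.14, 4.24, 4.15 and 4.35. The mean was 2.70 ± 0.11 (SD, n = 3) against 4.22 ± 0.10 (SD, n = 4), so replicates of each group lay close together. The difference was -1.52 (95% CI -1.84 to -1.21), a 2.87-fold lower signal (2.31 to 3.57), with an adjusted p of 0.000165 by limma. It was lower in all 23 alternative fits of this gene and passed in each with more than 1 array per group. These fits are not 23 separate checks, because the filters, the mean of probes and the robust prior returned -1.52 again. The authors' values likewise repeated normexp with quantile normalization, at -1.79 for both. Pan-epithelial centring gave -3.23 and lowers every gene's difference alike, and the range without it was -1.86 to -1.42. Within row 1 alone the difference was -1.43, within row 2 alone -1.68 and with AER replicate 3 alone -1.65. The probe lies at chr1:93308264-93308323 (mm9).

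Like Hes6, all muscle progenitor markers tested and part of the limb mesenchyme and mural cell markers were lower in the AER. The mesenchyme gene Prrx2 (0.40) and the mural genes Tagln (0.77) and Abcc9 (0.08) had positive differences and did not pass. Of 12 mesenchyme genes tested 9 were lower, with a median difference of -1.40 (log2), and of 6 mural cell genes 3 were lower, with a median of -0.65. All 9 muscle progenitor genes tested were lower, with a median of -5.18 when Chrnd, at background in the AER, is set to its bound (-5.31 as fitted), and their mean scaled log2 value lay between -4.24 and -3.19 in the AER and between 0.62 and 1.46 in the ectoderm. The summed scaled level of the list (linear, relative to the 75th percentile) was 0.725 to 1.51 against 24.5 to 42.7. Chrnd, an acetylcholine receptor subunit gene of muscle, was not well above background on any AER array, and the muscle determination gene Myod1 was well above it on 1 of 3, so fitted differences of such genes are not exact sizes. Myf5 and Myf6 were not tested because they did not pass the background filter. Of the neural and neural crest genes, Tubb3 and Dct were higher in the AER (both named after their values were seen), and 1 gene was lower at an unadjusted p under 0.05 by limma. The part of RNA from these tissues in the Hes6 difference was not tested.

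**Figure D2:**
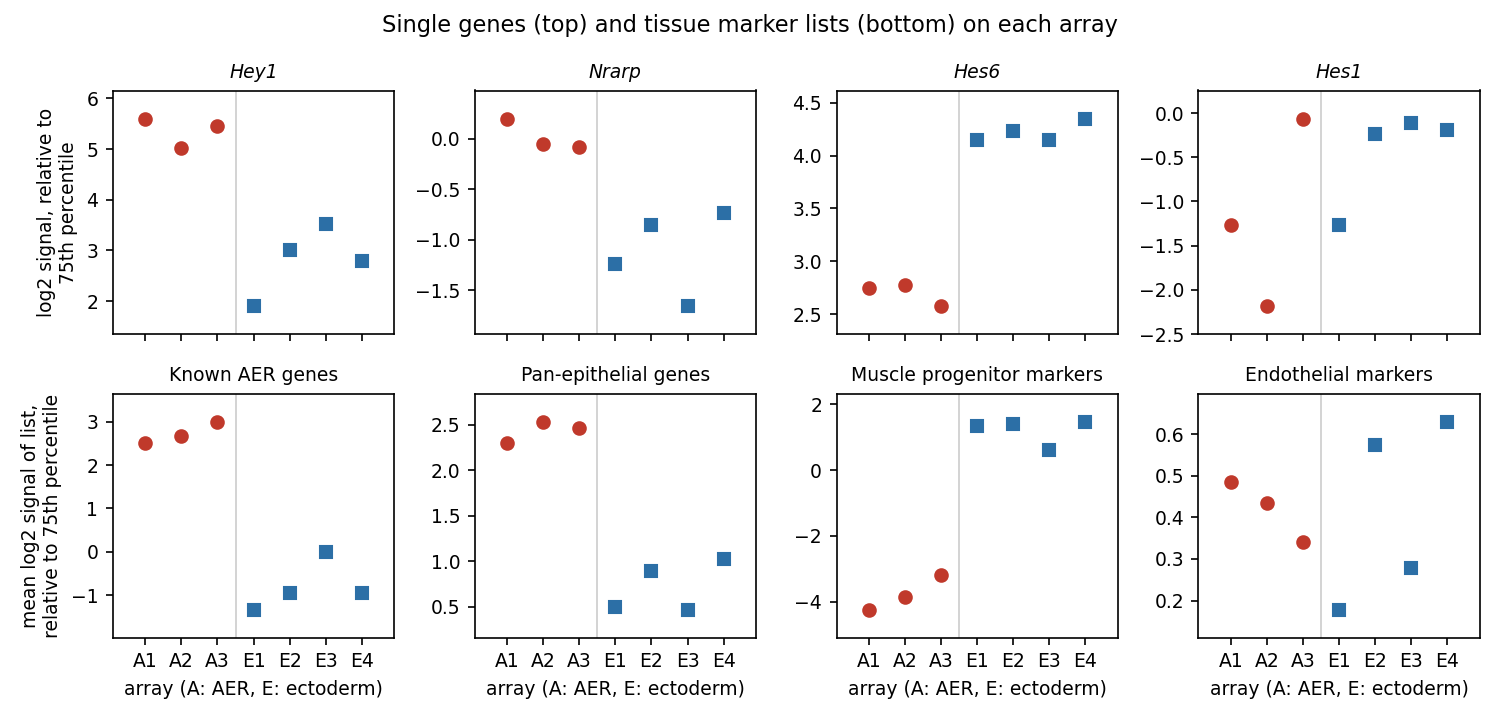
Scaled log2 signal (y axis, with its own range in each panel) on the 3 AER arrays (A1 to A3, red circles) and 4 ectoderm arrays (E1 to E4, blue squares) for 4 single genes (top) and the mean of 4 marker lists (bottom). Hes6 and the muscle list are low on all AER arrays, Hey1 and the AER list are high there with E3 the highest ectoderm array for both, and the endothelial list spans 0.18 to 0.63 with the groups overlapping.

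Hes1 and Hes5, the classic Notch targets of the Hes family, did not pass. Hes1 values were -1.27, -2.19 and -0.06 in the AER and -1.26, -0.24, -0.11 and -0.19 in the ectoderm. AER replicate 3 lay at the top of both groups, and ectoderm replicate 1 lay at the level of AER replicate 1. The difference was -0.72 with an interval from -1.82 to 0.38 (limma adjusted p = 0.337), wide enough to hold a 3.54-fold lower or a 1.30-fold higher level. The SD among AER arrays was 1.06, and 1.47% of all genes had a larger one. The low Hes1 values of the AER were on the 2 arrays with noisier spots, whose part in the spread was not tested. Leaving out 1 array moved the difference from -1.28 (without AER replicate 3, limma adjusted p = 0.0733) to -0.22 (without AER replicate 2). Against AER replicate 3 alone the sign turned, to 0.39 (limma adjusted p = 0.642).

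Hes5 had little difference and a narrow interval. Its scaled log2 values ran from -2.15 to -1.53 in the AER and from -2.08 to -1.64 in the ectoderm, with the groups overlapping fully. The difference was -0.05 (95% CI -0.49 to 0.39; limma adjusted p = 0.880). Hes6's difference lay 1.47 below that of Hes5, and no array overlapped in the gap between these 2 genes (exact permutation p = 0.0286, the smallest possible, and 0.2 adjusted over the 7 pairs). The gaps of Hes6 against Hes1 and of Hes1 against Hes5 were -0.80 and -0.67 (adjusted exact p = 0.433 for both).

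None of the 3 Fringe genes passed the test. Lfng, known for its role in boundary formation, had values of -1.35, -1.41 and -0.98 in the AER and -0.77, -0.56, -1.14 and -0.76 in the ectoderm. AER replicate 3 and ectoderm replicate 3 cross, and all others separate. The difference was -0.44 (95% CI -0.87 to -0.01), with an unadjusted p of 0.0454 that became 0.154 after adjustment over all genes by limma.

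Mfng had 2 probes, with differences of -0.11 (95% CI -0.55 to 0.33; limma adjusted p = 0.724) and 0.03, on opposite sides of 0. The first had a mean of 1.62 ± 0.17 (SD, n = 3) in the AER and 1.73 ± 0.29 (SD, n = 4) in the ectoderm, and the sign of this small difference changed with background correction. Rfng's probes gave 0.14 (95% CI -0.36 to 0.63, limma adjusted p = 0.706) and 0.17. The second probe was far dimmer, by a mean of 5.60 (log2) over the arrays. With the first Rfng probe the AER arrays varied more than the ectoderm arrays, with an SD of 0.47 against 0.09. AER replicate 3 was the lowest AER array with both probes. Differences between the Fringe genes were also within error: Lfng lay 0.33 below Mfng, 0.58 below Rfng, and Mfng 0.25 below Rfng (adjusted exact p from 0.35 to 0.486 over the 7 pairs).

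**Figure D3:**
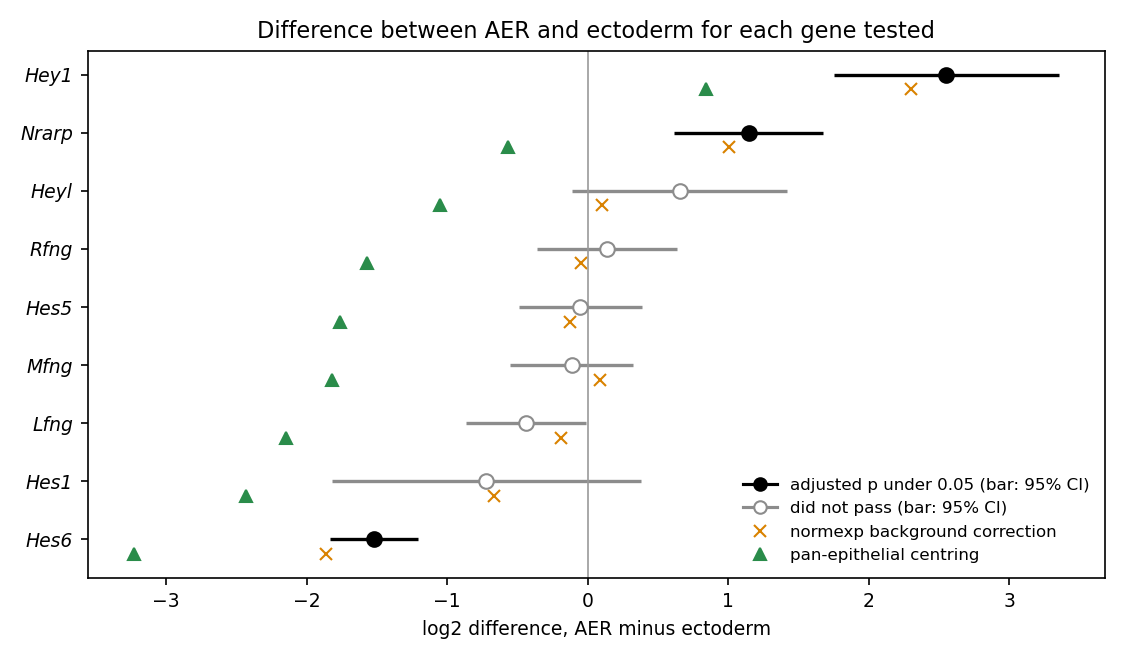
Log2 difference, AER minus ectoderm (x axis), of the 9 tested genes (y axis): filled points passed (adjusted p under 0.05), open points did not, and bars are 95% confidence intervals from limma. Crosses are normexp background correction and triangles centring on pan-epithelial genes; the crosses cross 0 for Mfng and Rfng and bring Heyl to 0.10, and the triangles lie lower for every gene, leaving Hey1 alone above 0.

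The rest of the pathway was read from 3 lists with 47 genes, of which 46 were tested. Of these, 3 were higher in the AER, 8 were lower and 35 did not pass, with a median difference of -0.06 (log2). Over all genes tested, 7.03% were higher and 8.65% lower, with a median of -0.08. The same shares stand beside the counts of each list below. Among 11 ligands and receptors, the ligand genes Jag1 and Jag2 were higher, by 1.63 and 1.80 (limma adjusted p = 0.00456 and 0.00126), but both lost the call under pan-epithelial centring, at -0.08 and 0.09. Lower were the Delta ligand genes Dll1 and Dll3, at -0.99 and -5.24, the non-canonical ligand gene Dlk1, at -4.31, and the receptor gene Notch2, at -1.09 (limma adjusted p from 3.73e-05 to 0.0127). Dll3 was well above background on 2 of 3 AER arrays, so its difference is not an exact size. The part of mesenchyme and muscle RNA in these lower genes was not tested. Second probes gave -3.59 for Dll3, -4.65 for Dlk1 and -0.97 for Notch2, the last with an adjusted p of 0.0548 over probes by limma. Within slide row 1 Jag1 and Jag2 were at 1.66 and 1.30 and did not pass (limma adjusted p = 0.133 and 0.0614), nor did Jag1 with AER replicate 3 alone, at 1.90 (0.0555). Neither Dll1 nor Notch2 passed within slide row 1 (-1.14 and -0.98) or row 2 (-1.05 and -1.10). Notch1, the receptor known for its role in the ridge, was at 0.28 (limma adjusted p = 0.587). Jag1, Dll1 and Notch1 were chosen for naming after their values were seen.

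Jag1 and Hey1 had the same highest ectoderm array, which was not particular to them. Ectoderm replicate 3 had the highest value of the group for both genes, with Jag1 at 1.05 there and from -0.01 to 0.32 on the other ectoderm arrays. The mean over the 16 known AER genes was also highest there, at -0.01. Nrarp (-1.66) and Heyl (-2.42) were lowest on that array, and Jag2 (-0.59) was not raised there. Jag1 was 2.11, 1.63 and 2.27 on the AER arrays, all above the ectoderm arrays.

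Genes that process the receptor or move the ligand were mostly within error: of 23 tested, none was higher by limma (4 at an unadjusted p under 0.05), 4 were lower and 19 did not pass. The 4 were the Deltex E3 ligase genes Dtx1 and Dtx4, at -2.86 and -1.89, the ligand-endocytosis ligase gene Neurl1a, at -1.25, and the Numb relative Numbl, at -0.88 (limma adjusted p from 2.19e-05 to 0.0175). Of 12 nuclear complex genes tested, the Mastermind gene Maml3 was higher, at 1.64 (limma adjusted p = 0.00876), and 11 did not pass. Its other 2 probes gave 1.43 (limma adjusted p = 0.00402 over probes) and 1.34 (0.177). The gene of the DNA-binding subunit, Rbpj, was at -0.46 (limma adjusted p = 0.132), with AER values of 1.81, 1.78 and 2.41 and ectoderm values of 2.35 to 2.52.

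Partners of the repressors moved in both directions. Of 5 Groucho/TLE genes tested, Tle4 and Tle6 were higher, by 1.27 and 1.70 (limma adjusted p = 0.00380 and 0.0229), and 3 did not pass. Both signs turned under pan-epithelial centring, to -0.44 and -0.01. Of 10 helix-loop-helix partners and targets tested, 4 were lower: the cell cycle inhibitor gene Cdkn1c at -2.19, the E-protein genes Tcf12 and Tcf4 at -1.19 and -0.97, and the inhibitor gene Id2 at -0.71 (limma adjusted p from 0.000153 to 0.0227). Id3, another inhibitor gene, was higher, at 0.76 (limma adjusted p = 0.0369), and lost the call when any 1 ectoderm array or AER replicate 1 was left out. Of 6 further genes of the bHLH-Orange class, 2 were tested: Bhlhe40 was higher, at 1.12 (limma adjusted p = 0.0381; -0.59 under that centring), and Hes7 was at 0.36 and did not pass.

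**Figure D4:**
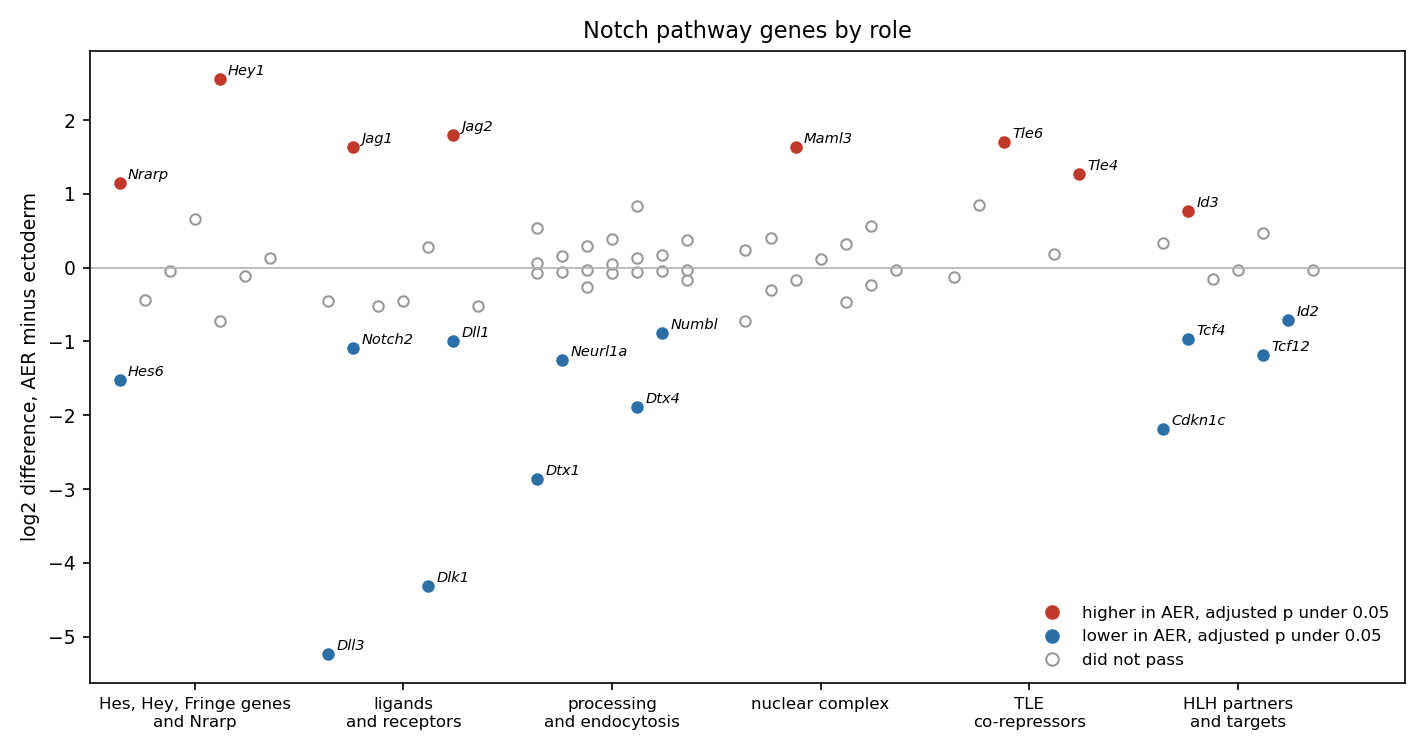
Log2 difference, AER minus ectoderm (y axis), of each tested gene in 6 groups by role (x axis; position within a group carries no meaning). Red points were higher and blue points lower in the AER with an adjusted p under 0.05, and open points did not pass; Dll3 at -5.24 is the lowest and Hey1 at 2.55 the highest point.

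The genes whose pattern over the 7 arrays was most like that of each called gene were found by Pearson's r. For Hes6 they were Nbl1 (0.999), Fitm1 (0.997) and Sphk2 (0.997), for Hey1 they were Mcub (0.996), Cdc42ep3 (0.995) and Cacna2d3 (0.992), and for Nrarp they were Mtus1 (0.990), Gdf6 (0.988) and Lypd3 (0.987). All points share the 2 tissues and the scaling, and r describes mainly the gap between groups. Over 0.9 stood 1092 of 12607 candidate genes for Hes6, 516 of 12604 for Hey1 and 272 of 12604 for Nrarp. Pearson's r takes no account of size, and differences of the 3 genes most like Hes6 were -5.15 (Nbl1), -7.22 (Fitm1) and -0.51 (Sphk2) on the log2 scale. Candidates had to be well above background only in the group where the called gene was higher, so such differences may not be exact sizes.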

How the data were processed

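RNA was measured on 7 one-colour arrays, 3 of AER and 4 of ectoderm, grouped by title. The deposited scanner files give a processed signal, an intensity on a linear scale that the Agilent Feature Extraction software subtracted and detrended per array, per the file headers, and other columns with flags for spots above background or of poor quality. The same deposited files hold mean and background signals as intensity values. The authors' deposited matrix is on a log2 scale and came within 0.000108 of normexp (offset 50) with quantile normalization. The submitters' processing notes name limma without version or steps.

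Uneven or outlying spots were dropped, spots of a probe were averaged on the log2 scale, and the 75th percentile of an array's non-control probes was taken off its log2 values. Of 62976 spots, 59305 were not controls. Probes well above background on at least 3 of 7 arrays were kept (28280 of 55681, 50.8%), and a gene was represented by its brightest probe on average. Probes took gene names by RefSeq accession (26300), symbol (2044) or older symbol (355), and otherwise the file's name (26982). Probe positions are given on mm9, the build in the file headers, and were not set against exons or untranslated regions.

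Testing used limma 3.58.1 (its lmFit and eBayes functions, two-sided, group as the single term, residual df 5, prior df 3.50) in R 4.3.3, with tables handled by data.table (1.17.8), and p-values were Benjamini-Hochberg adjusted over all 20826 genes. The fit function alone was run on simulated data, with the same spread in both groups. Scaling, filtering and probe choice were not covered. Files and plots used Python 3.11.15, pandas 2.3.3, numpy 2.4.6 and matplotlib 3.10.9. The number of arrays limits the precision.

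The genes, lists and alternatives were chosen with earlier results of these data known, and AER replicate 3 as the single AER array was added after seeing the data. The text names all 10 genes, up to 4 genes of every other list (those past the threshold with the smallest p) and the 3 genes most like each called gene; other names, among them Id3, Rbpj, Hes7, Fgf8, Myf5 and Myf6, were chosen after their values were seen. Marker lists were known AER, pan-epithelial, limb mesenchyme, muscle progenitor, endothelial, mural, neural and neural crest, erythroid and macrophage genes. Replicate numbers are shared by the titles of both groups, and nothing else ties same-numbered samples together.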

Additional observations from a re-analysis of the deposited data

Results flagged for a closer look

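In groups of 4, a value is listed here when its gap to the nearest array, divided by the group's range, exceeds 0.829 (Dixon's test), which chance gives in about 1 in 20 groups. The ectoderm values of 12 probes were looked at, and 2 met this. For Hes1, ectoderm replicate 1 was at -1.26 (scaled log2), with a gap ratio of 0.889 to the other 3 ectoderm arrays. For Heyl, ectoderm replicate 3 was at -2.42, with a gap ratio of 0.878.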

How the results depend on the processing

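Leaving out each array in turn kept 2 of the 10 genes higher and 1 lower in all 7 fits. So did both normexp settings, the filters, the row block, array weights, a robust prior, and ectoderm replicates 2 and 4 (the closest pair) averaged. The authors' values gave the same counts but repeat normexp with quantile normalization, so they are not a separate check. Pan-epithelial centring gave 1 higher and 7 lower genes, 10 called probes against 3, 43 other Notch genes against 11 and 19997 called genes (200 higher, 19797 lower) against 3266 (1464 and 1802). Within row 1 there were 0 higher by limma (2 at an unadjusted p under 0.05), 3 other Notch genes and 653 called genes (239 and 414), within row 2 1 higher, 7 and 1390 (547 and 843), and with AER replicate 3 alone 0 higher (2 at an unadjusted p under 0.05), 7 and 1533 (637 and 896). Quantile normalization and the authors' values gave 18 other Notch genes. Leaving out 1 array gave 1179 (without ectoderm replicate 4) to 1916 genes lower. The higher share of calls was 44.8%, 57.4% with the percentile over probes bright on every array, and 1.00% with centring. The replicate block gave 2 and 1 member calls. With each gene's group mean taken off every array, the remainders of same-numbered samples correlated at -0.03, 0.19 and 0.13. For number 1 this is below the 0.1 asked of every pair, so the numbers were not taken to pair the samples. By these remainders, AER replicates 2 and 3 correlated best with their own number and AER replicate 1 with ectoderm replicate 3. With the group means left in, AER and ectoderm arrays correlated at 0.946 to 0.968. Signs turned for genes that had not passed: Hes5 (0.054 with that percentile, 0.017 with the row block, 0.33 in row 1, and -0.22 to 0.088 leaving out 1 array, above 0 without AER replicate 3 and without ectoderm replicate 3), Heyl (-1.05, centring), Mfng (0.087 and 0.095 with the normexp settings, 0.095 with the authors' values, 0.18 in row 1), Rfng (-0.046 with normexp, -1.57 centring, -0.019 in row 2, -0.035 with array weights, -0.075 without AER replicate 2 to 0.39 leaving out 1 array, -0.37 with AER replicate 3 alone) and Hes1 (0.39, AER replicate 3 alone). Under centring they also turned for, among others, Nrarp (-0.56), Tle4 (-0.44), Tle6 (-0.011), Maml3 (-0.074), Bhlhe40 (-0.59), Jag1 (-0.078), Id3 (-0.95), Cacna2d3 (-0.031) and Mtus1 (-0.72). Centring lowered the AER arrays by 2.30 to 2.53 and the ectoderm arrays by 0.47 to 1.02, so every gene's difference fell by the same amount. Any positive difference smaller than that amount had to turn negative. The cause of the other changes was not tested. Signal over background limits Hey2.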
